A study of Mus musculus with 4 samples.

Results

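The 70 cytosolic ribosomal protein genes measured here were followed across 4 two-colour arrays of mouse cybrid fibroblasts. They were taken by gene symbol, as genes named Rpl or Rps with a number together with the stalk genes Rplp0, Rplp1 and Rplp2 and Rpsa. Kinases of the Rps6k family, pseudogenes and the like-genes Rpl22l1, Rps27l, Rpl7l1, Rpl39l and Rpl3l were left out. The set holds 45 genes of the large and 25 of the small subunit, out of 19087 genes on the arrays, and 134 of 45220 spots. Cybrids join the mitochondria of a donor to the nucleus of a recipient line. The control, mtB6, is LMEB3(mtB6) with mitochondria of C57BL/6J mice, and the mutant, mtBALB, is LMEB3(mtBALB) with those of BALB/cJ mice. Both are fibroblasts at passage 3 and were grown in high glucose medium with fetal bovine serum, and the lines are described as clones in the title, with their number not given. Each of the 4 arrays carried RNA of 1 mtB6 and 1 mtBALB culture of the same replicate number, with mtB6 in Cy5 on replicates 1 and 3 and mtBALB in Cy5 on replicates 2 and 4.

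Ribosomal proteins assemble with ribosomal RNA into the small subunit, which reads the messenger RNA, and the large subunit, which joins amino acids. They are made in near equal numbers, and their messengers are among the most abundant of a growing fibroblast. In mammals these messengers begin with a C and a run of pyrimidines, the terminal oligopyrimidine (TOP) tract, through which mTOR signalling and the protein LARP1 set how much they are translated. Their genes have many processed pseudogenes, so that a probe may also read copies.

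The start of these genes is shown because the TOP tract is the sequence feature that sets the family apart. RefSeq promoters of GRCm38.p6 were available for 56 of the 70 genes. A run that opens with C and goes on with C or T for at least 6 bases in all, on the gene's own strand and beginning within 5 bases of the annotated start, stood in 24 of the 56 (42.9%) and in 12.3% of the 15247 genes of the arrays with a promoter. A window around an annotated start can miss the start that cells use. Each stretch below runs from 30 bases before the start to 20 bases from it, with the run in capitals. They are a selection from the 24 genes. Among those left out are Rpl12, Rps23 and Rps2, with runs of 6 bases, and Rpl38, with 8. All 4 of these had a wider difference between dye orientations than Rps10, which is shown. Rpl7a, with a run of 12 bases, is left out and had a wider difference than Rps6 and Rplp2, which are shown. Rpl31, with a run of 7 bases and a small difference, is left out too. The other genes left out lay between Rplp2 and Rpl31 in this difference. The first 6 stretches shown are of genes with a wide difference between dye orientations and the last 3 of genes with a small or opposite one. They lie at chr7:45128726-45128775 (Rpl13a, minus strand), chr3:90213629-90213678 (Rps27, minus), chr14:18270967-18271016 (Rpl15, minus), chr17:27635225-27635274 (Rps10, minus), chr4:86857348-86857397 (Rps6, minus), chr7:141447621-141447670 (Rplp2, plus), chr9:120571487-120571536 (Rpl14, plus), chr7:4792935-4792984 (Rpl28, plus) and chr7:109519165-109519214 (Rpl27a, plus).
Rpl13a: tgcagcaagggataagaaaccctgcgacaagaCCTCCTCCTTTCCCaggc
Rps27: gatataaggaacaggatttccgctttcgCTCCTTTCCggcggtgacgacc
Rpl15: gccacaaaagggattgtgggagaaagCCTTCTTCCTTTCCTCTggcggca
Rps10: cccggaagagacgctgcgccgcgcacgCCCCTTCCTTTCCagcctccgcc
Rps6: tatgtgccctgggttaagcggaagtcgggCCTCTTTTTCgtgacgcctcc
Rplp2: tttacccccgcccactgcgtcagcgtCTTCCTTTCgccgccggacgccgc
Rpl14: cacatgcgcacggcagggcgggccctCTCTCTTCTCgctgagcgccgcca
Rpl28: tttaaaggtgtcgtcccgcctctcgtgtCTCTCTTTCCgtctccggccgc
Rpl27a: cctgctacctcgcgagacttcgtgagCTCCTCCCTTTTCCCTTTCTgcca

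The values are the authors' log2 ratios of both lines, and the labels do not say which line is the numerator. A sign below is therefore a side of the ratio and names no line as higher. Ratios hold no levels, so the presence of a transcript cannot be read from them. Of 10 fibroblast markers, 6 had a spot of the usable kind described below. Spots with no gene listed were used to ask if all arrays run the same way. Of 171 such spots with a log2 ratio of at least 0.6 in size on every array, 163 changed sign with the dye orientation and 0 kept 1 sign. They fell into tight sets, one of 32 spots with means of -1.68, 1.75, -2.24 and 1.86 on replicates 1 to 4. Control transcripts added by dye would do so after turning, and ones added by line would do so without turning. These spots were picked by size alone and cannot decide between the 2 readings. The ratios were taken as turned, as an assumption. On that reading the mean over the 4 arrays is the difference between the lines, and the alternating part goes with the dye. The alternating part is the mean of replicates 1 and 3 minus the mean over all 4 arrays. Were the ratios not turned, the 2 quantities would trade places.

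No ribosomal protein gene differed between the lines by limma's test. Of 70 genes, 0 passed an adjusted p of 0.05, as for the 19087 genes of the arrays (0%), and 6 had an unadjusted p under 0.05, all on the negative side. These 6 are 8.57% of the set, and 3.64% of all genes had such a p in either direction and 2.05% on the negative side. The median of the mean ratio was -0.11 over the set and -0.00 over all genes. Means lay below 0 in 62 of 70 genes, against 50.5% of all genes. They ran from -0.30 to 0.09, and the 95% interval of a gene's mean had a median half-width of 0.26, so that most of these means lie inside their own error.

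The arrays showed another order. On replicates 1 to 4 the ribosomal protein genes had medians of 0.19, -0.37, 0.08 and -0.36, while the median of all genes stayed within 0.01 of 0 on each. The 2 arrays with mtB6 in Cy5 were the high ones. Genes above 0 numbered 55, 6, 52 and 12 of 70 on replicates 1 to 4.

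**Figure D1:**
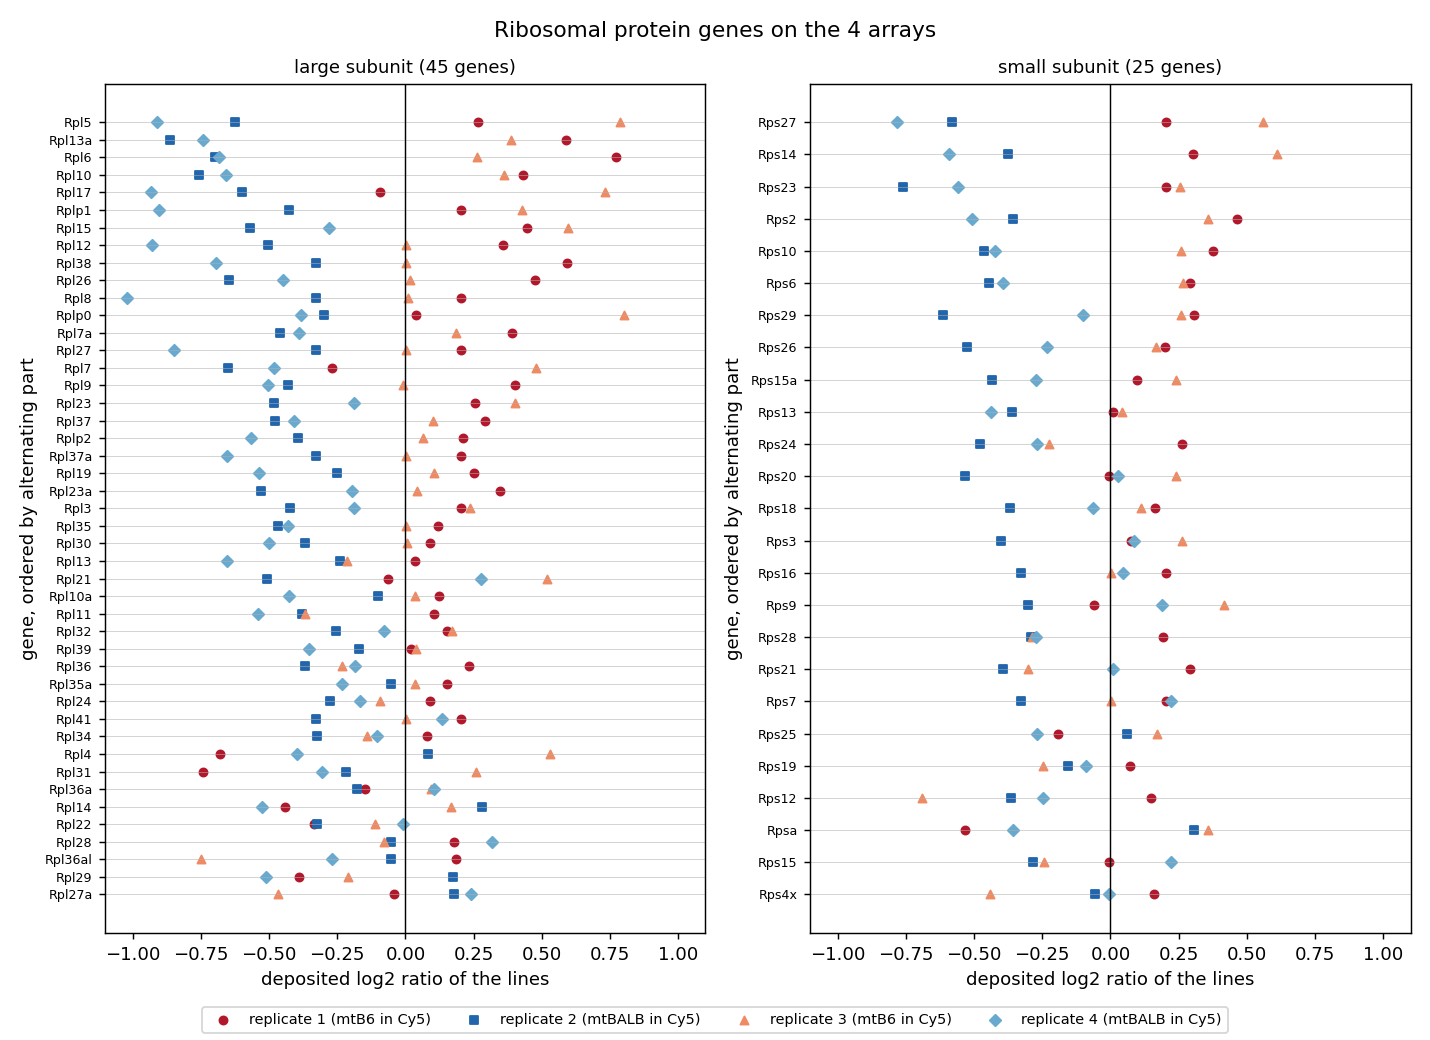
Deposited log2 ratio of each of the 70 ribosomal protein genes on the 4 arrays (horizontal axis), by subunit, with genes ordered by their alternating part and 1 symbol per array. Circles and triangles (replicates 1 and 3) lie to the right of squares and diamonds (replicates 2 and 4) in 44 of 70 genes.

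Both arrays of 1 orientation lay above both of the other in 44 genes (62.9%), where 21.9% of all genes had that order, and the reverse order occurred in 1 gene. Signs were positive on replicates 1 and 3 and negative on 2 and 4 in 37 genes (52.9%), against 11% of all genes, and 1 gene, Rpl27a, had the opposite pattern, as did 10.4% of all genes. A single gene, Rpl22, kept 1 sign on all arrays (1.43%), against 9.02% of all genes.

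The alternating part had a median of 0.20 over the set and 0.00 over all genes, and 6.44% of all genes had a value above the set's median. It was above 0 in 61 of 70 genes, against 51.3% of all genes. For this term limma called 0 genes of the set and 0 of the arrays (0%) after adjustment, and the smallest adjusted p of the set was 0.546. An unadjusted p under 0.05 was found for 33 of the 70 (47.1%), all positive, where 8.97% of all genes passed in either direction and 4.72% on the positive side. The set makes up 0.367% of all genes and 3.66% of those with an unadjusted p under 0.05 on the positive side. The family was singled out with this pattern already known, so these counts describe it and are no independent evidence.

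**Figure D2:**
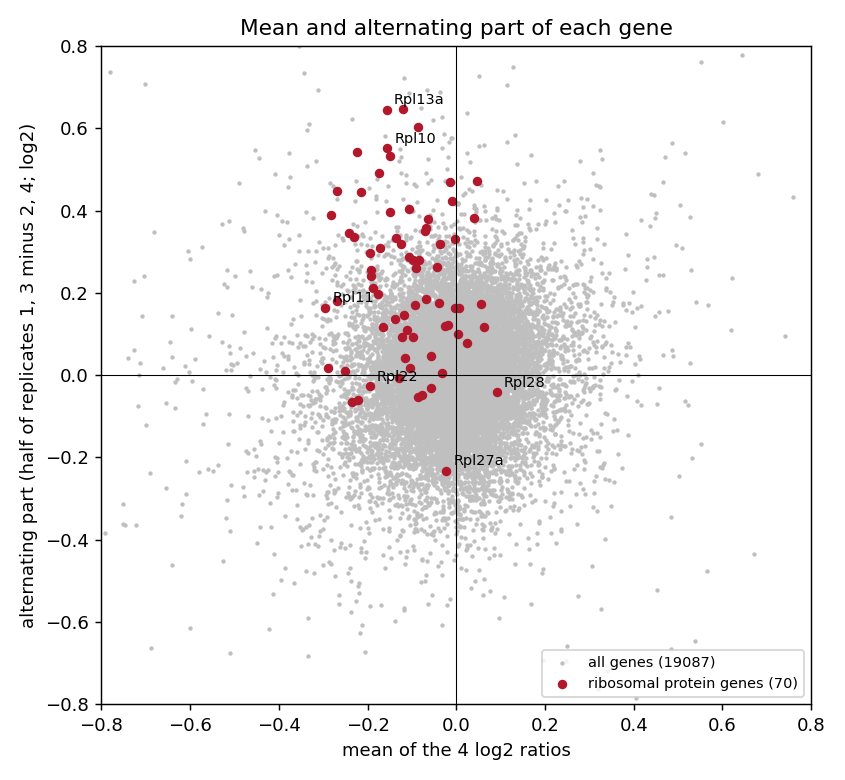
Mean of the 4 log2 ratios (horizontal axis) against the alternating part (vertical axis), 1 point per gene, with all 19087 genes in grey and the 70 ribosomal protein genes in red. The red points lie mostly above 0 on the vertical axis (median 0.20) and to the left of 0 on the horizontal one (median -0.11). Beyond the axis limits of 0.8 lie 46 other genes.

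Many spots of the family held a value that does not vary with the gene. On each array a set of spots held exactly the same number, which was 0.20, -0.33, 0.00 and 0.22 on replicates 1 to 4. It stood on 41, 69, 42 and 5 spots, and 100 spots had it on at least 1 array. Of these 100, 27 belonged to ribosomal protein genes, which own 0.296% of all spots.

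The gene for Rps7 and 1 of 3 spots of Rps18, both of the small subunit, had this number on all 4 arrays, along with 1 other spot, of the chemokine gene Ccl2. Among the 40 spots with it on at least 2 arrays were 12 of ribosomal protein genes and 15 with no gene listed. The other 13 were of 9 genes, namely Ccl2, Fth1 (ferritin), Hspa5 (a chaperone), Lgals1 (a galectin), S100a4, Ldha, H2-K1, Ptprz1 and Gm6607. Spots that read the scanner's upper limit in both colours would share a ratio in this way, but intensities were not used here and this was not tested. A value so shared is no measurement of the gene it stands for. It touches 25 of the 70 genes and every spot of 13. Medians per array, medians of the mean and alternating part, sign counts and unadjusted p counts are given with and without it. Other summaries, such as the order of the orientations and the values by subunit or by pyrimidine run, are given only with it.

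Without those spots 57 genes had a value, and the medians were 0.10, -0.37, 0.09 and -0.28 on replicates 1 to 4. The set's median alternating part was then 0.16 and its median mean was -0.11. Replicates 1 and 3 were again the high ones. Genes above 0 numbered 38, 7, 37 and 12 of the 57 on replicates 1 to 4. Of the 57, 24 had signs that follow the orientation (42.1%), against 10.8% of the 19060 genes then tested. An unadjusted p under 0.05 for the alternating part was found for 22 (38.6%), against 8.88% of genes. For the line difference it was found for 3 (5.26%), near the 3.61% of all genes.

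A wider criterion takes a spot as tied where at least 3 spots of an array hold its exact value. Of the 134 spots of the set, 96 were never tied (71.6%), against 39.1% of all spots, and 11 were tied only at values other than the shared one. With never tied spots alone, 55 genes had medians of 0.18, -0.39, 0.14 and -0.36 on replicates 1 to 4. In limma 0 of the 55 then had an unadjusted p under 0.05 for the line difference, against 2.76% of the 9774 genes tested, and 19 (34.5%) had one for the alternating part, against 4.47%. Signs followed the orientation in 24 of the 55 (43.6%), against 8.79% of genes.

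**Figure D3:**
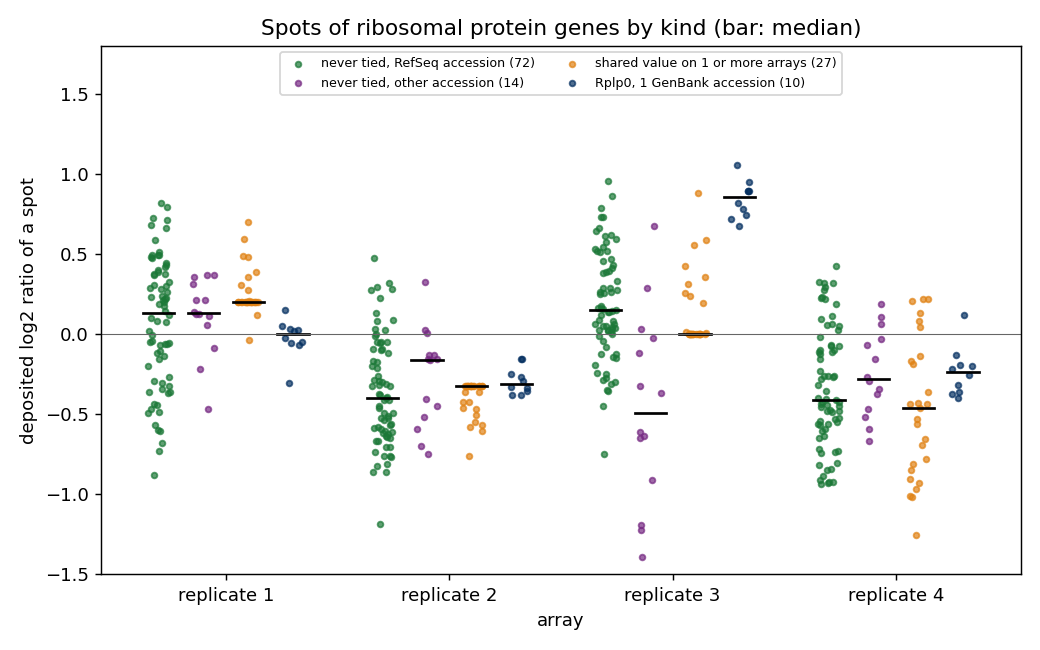
Deposited log2 ratio of single spots of ribosomal protein genes (vertical axis) on the 4 arrays, by kind of spot, with a bar at the median; 11 spots tied only at other values are not drawn. The shared numbers show as flat rows at 0.20, -0.33 and 0.00 on replicates 1 to 3, and the 72 never tied RefSeq spots have medians of 0.13, -0.40, 0.15 and -0.41.

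The large subunit's stalk, which binds elongation factors, consists of Rplp0, Rplp1 and Rplp2. Rplp1 had 0.20, -0.43, 0.43 and -0.90 on replicates 1 to 4, with a mean of -0.17 ± 0.61 (SD, n = 4, as for each mean below), and its only spot held the shared number on replicate 1. Rplp2 had 0.21, -0.39, 0.06 and -0.57, with a mean of -0.17 ± 0.37. Both genes were high on replicates 1 and 3 and low on 2 and 4 with no overlap.

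Rplp0, the scaffold of the stalk, had 0.04, -0.30, 0.80 and -0.38 and a mean of 0.04 ± 0.54. It was the best covered gene, with 12 spots, 10 of them listed with 1 GenBank accession. Those 10 spots gave -0.02 ± 0.12, -0.29 ± 0.08, 0.84 ± 0.12 and -0.23 ± 0.15 on replicates 1 to 4 (SD over 10 spots of an array). Replicate 3 thus stood apart from replicate 1, of the same dye orientation, by more than the spread between spots, with a lowest spot of 0.68 on replicate 3 and a highest of 0.15 on replicate 1. The RefSeq spots of Rplp0 had 0.20, -0.36, 0.32 and -1.01, and 0.48, -0.33, 0.88 and -1.26. Their means were -0.21 and -0.05, against a median of 0.09 for the means of the 10 spots. Each RefSeq spot held the shared number on 1 array.

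Rpl5 and Rpl11 enter the large subunit together with the 5S RNA, and outside the ribosome they bind the p53 regulator Mdm2. Rpl5 had 0.26, -0.62, 0.79 and -0.91, with a mean of -0.12 ± 0.79 and the largest alternating part of the set, 0.65. Rpl11 had 0.10, -0.38, -0.37 and -0.54 and a mean of -0.30 ± 0.28, the lowest of the set (limma unadjusted p = 0.0394, adjusted p = 0.9997). Both were positive on replicate 1 and negative on 2 and 4, and they had opposite signs on replicate 3.

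The value of Rpl11 averages spots that disagree. Its RefSeq spot had 0.68, -0.76, 0.17 and -0.92, close to the order seen in Rpl5, and its other spot had -0.47, 0.01, -0.91 and -0.16. Neither was tied on any array. The low mean of Rpl11 therefore rests on both spots, while the RefSeq spot alone followed the orientation.

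Rpl10, one of the last proteins to join the large subunit, had 0.43, -0.76, 0.36 and -0.66, with an alternating part of 0.55 (limma unadjusted p = 5.1e-04, adjusted p = 0.546). Rpl13a, which leaves the ribosome after interferon treatment of human monocytes and often serves as a reference gene, had 0.59, -0.86, 0.39 and -0.74, with an alternating part of 0.65. Rpl6 had 0.77, -0.70, 0.26 and -0.68, and both of its spots had the same order. In these 3 genes the orientations did not overlap, and the means were -0.16 ± 0.64, -0.16 ± 0.75 and -0.09 ± 0.73. With the dye term in the fit their standard errors were 0.06, 0.07 and 0.10, and limma's unadjusted p for the line difference was 0.0545, 0.0789 and 0.442.

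Rpl15 had 0.44, -0.57, 0.59 and -0.28, and Rpl38, needed for the translation of Hox messengers in mouse embryos, had 0.59, -0.33, 0.00 and -0.70. The only spot of Rpl38 held the shared number on replicates 2 and 3. Rpl41, the smallest ribosomal protein, had 0.20, -0.33, 0.00 and 0.13, of which the first 3 are the shared numbers, so that replicate 4 alone carries information on it.

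Of the 6 genes with the lowest p for the line difference, 4 belong to the large subunit, which holds 45 of the 70 genes. Rpl35, which lies at the exit of the peptide tunnel, had 0.12, -0.47, 0.00 and -0.43, with a mean of -0.19 ± 0.30 (limma unadjusted p = 0.0279). Rpl30 had 0.09, -0.37, 0.01 and -0.50 and a mean of -0.19 ± 0.29 (limma unadjusted p = 0.0318). Rpl13 had a mean of -0.27 ± 0.29, and 1 of its 3 spots held the shared number on 2 arrays, as the only spot of Rpl35 did on replicate 3. In the gene values of Rpl35 and Rpl30 the negative mean came with values near 0 on replicates 1 and 3 and below -0.3 on replicates 2 and 4. The values of Rpl30 near 0 average never tied spots of opposite sign. Its RefSeq spot had -0.13, -0.60, 0.33 and -0.41, and its other spot had 0.31, -0.13, -0.32 and -0.59.

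Signs followed the orientation in 26 of the 45 genes of the large subunit, and the genes described next are among those without that pattern. Rpl22, whose loss blocks a lineage of T cells in mice, had -0.34, -0.33, -0.11 and -0.01, with a mean of -0.20 ± 0.16 (limma unadjusted p = 0.0804). It is the gene with 1 sign on all arrays, but only in the average of its spots, whose means were -0.31 and -0.08. The first spot had -0.57, -0.65, 0.09 and -0.11. The second had -0.11, 0.00, -0.31 and 0.09, so neither spot kept 1 sign. Rpl28 had 0.18, -0.05, -0.08 and 0.32, and its mean of 0.09 ± 0.19 was the highest of the set.

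Rpl14 had -0.44, 0.28, 0.17 and -0.53, Rpl31 had -0.74, -0.22, 0.26 and -0.31, and Rpl36a, which lies at the exit site of transfer RNA, had -0.15, -0.18, 0.09 and 0.10. These 3 genes had the smallest alternating parts in size, at -0.01, 0.01 and 0.00, and in each the arrays of 1 orientation had opposite signs in at least 1 orientation. The value of Rpl36a averages 3 spots that disagree, with alternating parts of 0.28, -0.14 and -0.12, and the spots of Rpl31 had 0.20 and -0.18. Rpl21 had -0.06, -0.51, 0.52 and 0.28.

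Rpl29, with 4 never tied spots, had -0.39, 0.17, -0.21 and -0.51, and 3 of its 4 spots were negative on replicates 1, 3 and 4 and positive on replicate 2. It was chosen after its values were seen, as were Rpl17 and Rpl27a. Both spots of Rpl17 agreed to within 0.08 on every array, at -0.12 and -0.07, -0.56 and -0.64, 0.73 and 0.73, and -0.93 and -0.94 on replicates 1 to 4. Rpl27a had -0.04, 0.18, -0.47 and 0.24. Between spots of 1 gene and 1 accession, never tied and with Rplp0 left out, the range had a median of 0.24 over 17 such sets and the 4 arrays.

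In the small subunit the alternating part had a median of 0.18, and in the large subunit 0.26. The medians were 0.19, -0.37, 0.17 and -0.25 for the small and 0.19, -0.33, 0.04 and -0.43 for the large subunit on replicates 1 to 4. Medians of the mean ratio were -0.07 and -0.12. In both subunits replicates 1 and 3 had medians above 0 and replicates 2 and 4 below it, with replicate 2 lowest in the small and replicate 4 lowest in the large subunit. Whether the subunits differ was not tested.

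Rps6, the ribosomal substrate of the S6 kinases, had 0.29, -0.45, 0.27 and -0.39, with an alternating part of 0.35 (limma unadjusted p = 0.0027, adjusted p = 0.546). Its never tied RefSeq spot had 0.43, -0.86, 0.52 and -0.82, and its other spot, tied on all 4 arrays, stayed between -0.03 and 0.15. Rps2, at the entry of the messenger channel, behaved alike, with 0.72, -0.58, 0.55 and -0.80 and 0.79, -0.67, 0.86 and -0.85 on its RefSeq spots. A further spot of Rps2, tied on 4 arrays, had -0.11, 0.18, -0.33 and 0.13, so that the gene's average of 0.46, -0.36, 0.36 and -0.51 is smaller in size than either RefSeq spot.

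Rps23, which takes part in decoding accuracy, had 0.20, -0.76, 0.26 and -0.56 and a mean of -0.22 ± 0.52 (limma unadjusted p = 0.0276). Its value on replicate 1 is the shared number. Rps13 had 0.01, -0.36, 0.04 and -0.44 and a mean of -0.19 ± 0.25 (limma unadjusted p = 0.0278). The value of Rps13 averages never tied spots that disagree on replicate 3. Its RefSeq spot had -0.04, -0.59, 0.45 and -0.53, and its other spot had 0.06, -0.13, -0.37 and -0.34. Rps23 and Rps13 both had adjusted p = 0.9997 in limma, and neither gene kept 1 sign over the arrays.

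Rps19, mutated in human Diamond-Blackfan anaemia, had 0.07, -0.16, -0.25 and -0.09 and a mean of -0.11 ± 0.13. Rps3, at the entry of the messenger channel, had 0.08, -0.40, 0.26 and 0.09. Rpsa, also known as a laminin receptor, had -0.53, 0.31, 0.36 and -0.36, and the X-linked Rps4x had 0.16, -0.06, -0.44 and -0.01. One of the spots of Rps4x held the shared number on 3 arrays. The orientations overlapped in the gene values of all 4, and each of these values averages spots that disagree. The spots of Rpsa had alternating parts of 0.18 and -0.24, and those of Rps4x had -0.28 and 0.18. A never tied spot of Rps3 had 0.49, -0.71, 0.64 and 0.06, with no overlap. Its other spot had -0.34, -0.09, -0.12 and 0.11. A never tied spot of Rps19 had 0.37, -0.59, -0.12 and -0.52, with no overlap, and another had -0.06, -0.21, -0.35 and 0.30.

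Rps9 had -0.06, -0.30, 0.42 and 0.19, and its mean of 0.06 ± 0.31 was the highest of the small subunit. Rps27a was not analysed here. Among small subunit genes not listed so far, Rps27 had the widest separation, with 0.20, -0.58, 0.56 and -0.78, of which the first is the shared number. Means of the subunit ran from -0.29 to 0.06.

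Spots listed with a RefSeq accession and spots listed with another accession of the same gene differed in the set. Of 9 genes with never tied spots of both kinds, the RefSeq spots had the higher alternating part in 7 (77.8%), against 54.4% of 963 genes of the arrays. The medians were 0.30 for RefSeq and 0.04 for other spots in the 9 genes, and 0.00 and -0.01 in the 963. The 2 exceptions were Rpl10 and Rps19. No test was made, since the genes share arrays.

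Genes with a pyrimidine run at the annotated start, such as those printed above, had a median alternating part of 0.27, and the 32 with a promoter and no run had 0.15. Spots at the shared number were not left out here. Of the genes with a run, Rps27, Rpl12, Rps23, Rpl38 and Rpl35 had no other spot. Whether the medians differ without such spots was not tested. Among genes outside the set, the 1855 with a run had 0.00, as did all genes without one (0.00). Means over the arrays had medians of -0.10 and -0.11 in genes of the set with and without a run. Rpl27a, with the longest run shown, had the lowest alternating part of the set at -0.23.

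Ribosomal proteins outside the naming rule gave mixed values. Fau, which encodes a small subunit protein fused to a ubiquitin-like one, had 0.36, -0.61, 0.00 and -0.89, with the shared number on replicate 3. Rps3a1, another small subunit gene, had 0.20, -0.48, 0.71 and -0.27. Rpl3l, the muscle counterpart of Rpl3, had -0.06, -0.68, 0.10 and -0.58, with no overlap of the orientations. Fau and Rps3a1 had signs that follow the orientation. The like-genes Rps27l and Rpl39l had -0.40, 0.27, -0.41 and -0.39, and -0.21, 0.10, 0.05 and 0.45. Rpl22l1 and Rpl7l1 had 0.20, -0.33, 0.42 and 0.40, and 0.52, 0.11, 0.05 and 0.07, with the shared number on replicate 2 in Rpl22l1. None of these like-genes had signs that follow the orientation.

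The 6 measured genes of a list of ribosomal-like genes, among them Fau and Rpl3l, had a median alternating part of 0.12, and the 10 fibroblast markers had 0.14. On the alternating part, unadjusted p under 0.05 occurred in 4.72% of all genes on the positive side and 4.25% on the negative, for the lists that follow. The 30 initiation factors had a median of 0.05, with 1 gene of unadjusted p under 0.05 on the positive side and 2 on the negative. The 12 elongation and release factors had 0.08, with 1 and 0, and Eef1g, a subunit of the exchange factor of elongation, had 0.41, -0.30, 0.12 and -0.27. The 55 genes of ribosome biogenesis had -0.02, with 2 and 3, and the 19 regulators of mTOR signalling and TOP translation had -0.02, with 1 and 1.

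Eif3m and Eif5, initiation factors, had the opposite order to the ribosomal proteins, with -0.52, 0.41, -0.49 and 0.43 for Eif3m and -0.18, 0.18, -0.57 and 0.32 for Eif5. The poly(A) binding protein gene Pabpc1, itself a TOP messenger, had -0.04, -0.32, -0.29 and -0.21, and 1 of its 2 spots held the shared number. Rrs1 and Nop58, which act in the nucleolus, had means of -0.35 ± 0.20 and -0.25 ± 0.20. After adjustment over all genes, limma called 0 of these genes.

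The 78 mitochondrial ribosomal protein genes, the counterpart of the set inside mitochondria, had a median alternating part of -0.02 and a median mean of 0.00. Of these, 1 had an unadjusted p under 0.05 on the positive side of the alternating part and 7 on the negative. Mrpl53 had -0.38, 0.37, -0.36 and 0.37 and Mrps16 had -0.24, 0.33, -0.39 and 0.32, the reverse of the cytosolic order. Of 12 genes commonly used as references, the median alternating part was 0.06, and Pgk1, a glycolytic enzyme, had 0.47, -0.59, 0.66 and -0.76, with the shared number on 3 of its 11 spots. B2m had the reverse order, with -0.27, 0.13, -1.36 and 0.14. Tfrc was positive on all arrays, with 0.52, 0.13, 0.92 and 0.59.

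**Figure D4:**
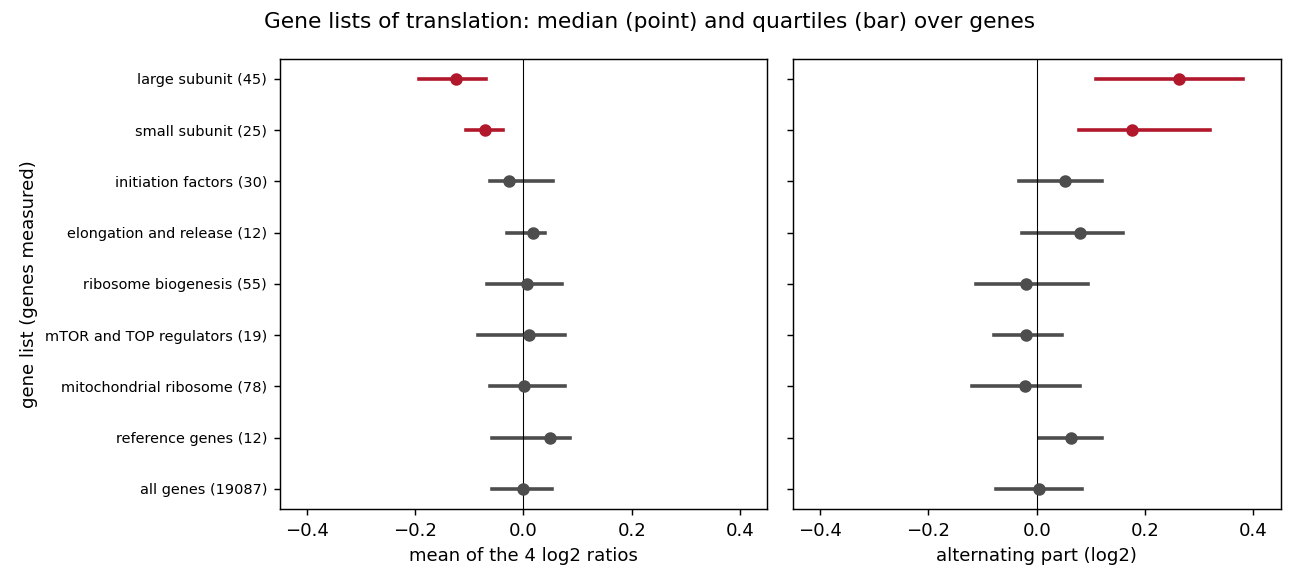
Median (point) and quartiles (bar) over the genes of each list, for the mean of the 4 log2 ratios (left) and for the alternating part (right), with the number of genes measured in brackets. The large and small subunit (red) have medians of 0.26 and 0.18 in the alternating part, and the other lists drawn lie between -0.02 and 0.08.

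Across genes, which are not independent replicates, Pearson's r between arrays of opposite orientation lay between -0.61 and -0.21 over the 70 genes and between -0.12 and 0.05 over all genes. Between arrays of 1 orientation it was -0.03 for replicates 1 and 3 and 0.28 for replicates 2 and 4 over the 70 genes, and -0.19 and 0.04 over all genes, the former being the most negative of the 6 pairs. All values of 1 array share its dyes, its normalization and its pair of cultures.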

How the data were processed

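RNA of mtB6 and mtBALB cybrids was compared on 4 two-colour arrays. The authors deposited 1 log2 ratio per spot and array (base 2 is taken from limma's scale and is not stated). Of tools, limma is named in the submitters' processing notes, with no version. How background, normalization and filters were handled, and the build, is not given in the sources used here. Intensities were not used here, so the number of arrays limits the precision.

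Of 45220 spots, 33653 were listed with 1 gene, 56 with several and 11511 with none. The spots of a gene were averaged by platform symbol. The 19087 genes were fitted in limma 3.58.1 (R 4.3.3) with lmFit and eBayes, with the mean ratio and the dye orientation as terms, leaving 2 residual degrees of freedom. Benjamini-Hochberg adjustment ran over the 19087 genes, and calls were made at 0.05. The fit was tested on simulated data. Promoters are from RefSeq.

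Members and lists were chosen with earlier results of these data known. Genes named are those with 1 sign throughout, the 4 of lowest line p on each side, the 4 of lowest dye p, the 3 largest and 3 smallest alternating parts, and genes of known role; of other lists, some of the 2 genes of lowest p in either term. Replicates are called biological in the labels. Alternatives were the dye term, turning, spots, scaling, centring, variance model, symbols and single arrays.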

Additional observations from a re-analysis of the deposited data

How the results depend on the processing

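No gene passed an adjusted p of 0.05 for either term in limma under any setting run. The set's median mean ratio stayed on the negative side under all settings with turned ratios, from -0.12 to -0.07 without single replicates, and its median alternating part stayed positive, from 0.20 to 0.24 without single replicates. Counts at an unadjusted p under 0.05 moved more. With no dye term, 1 gene of the set had such a p for the line difference, in place of 6. With ratios read as not turned, the line difference had 1713 genes in all and 33 of the set, a median of 0.20 and 9 genes below 0, while the alternating part had 694 genes in all and 6 of the set, a median of -0.11 and 0 genes whose sign follows the orientation. With never tied spots alone, the line difference had 270 genes in all and 0 of the set, the alternating part had 437 and 19, and signs followed the orientation in 24 of 55 genes. Without spots at the shared number, an alternative chosen after the data were seen, 3 genes of the set had such a p for the line difference and signs followed in 24 of 57. The first of these settings tests 9774 genes in place of 19087 and the second 19060, and both test fewer genes of the set. Leaving out 1 replicate, the line difference had 426 to 1579 genes in all and 1 to 14 of the set (1 without replicate 4 and 14 without replicate 1), and the alternating part had 690 to 2299 in all and 21 to 35 of the set (21 without replicate 2). The cause was not tested. Of 678 values of 28 named genes, 656 moved by less than 1 SD and 22 by more, all 22 with ratios not turned. Part of these values could not move. The variance model leaves both terms unchanged, and dropping the dye term leaves the line difference unchanged. The SD over arrays also holds the alternating part, so a sign can change within it. The line difference of Rpsa was -0.06 on all arrays, 0.17 without replicate 1 and -0.28 without replicate 3. A trend in the variance model was not run, since ratios hold no intensity. Each array compares a pair of cultures of the same replicate number, so the fit is itself paired.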
